A study of Mus musculus with 3 samples.

Results

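GABAergic amacrine cells were selected from 3 single-cell RNA-sequencing libraries of mouse retina at postnatal day 6, and 541 cells of 29084 met the rule. The cells were selected on their own UMI counts, a UMI (unique molecular identifier) being the tag of 1 captured transcript. A cell had to have at least 1000 UMIs, at most 15% mitochondrial UMIs, at least 2 UMIs over Tfap2a, Tfap2b and Pax6, and at least 3 UMIs of Gad1 plus Gad2 per 10000. It also had to have more UMIs of Gad1 plus Gad2 than of Slc6a9 and 0 UMIs of Lhx1, a horizontal cell factor. Limits per 10000 UMIs were set on endothelial genes (Cdh5, Pecam1 and Egfl7, under 5), microglial genes (Cx3cr1, C1qa and Csf1r, under 5) and cycling genes (Top2a, Mki67 and Cenpf, under 3). The rule kept 286 of 9378 wild-type (WT) cells (3.05% [2.71 to 3.42]), 221 of 11585 Tspan12 KO cells (1.91% [1.67 to 2.17]) and 34 of 8121 Ctnnb1 cKO cells (0.419% [0.290 to 0.585]), with exact 95% Clopper-Pearson intervals. Levels of the genes in the rule chose the cells and are given below as a description only.

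The study concerned Norrin and beta-catenin signalling in retinal vessels, and the background of every group was C57BL/6. Tspan12 KO mice carried a germline knockout of the tetraspanin that acts with the Norrin receptor, and Ctnnb1 cKO mice carried loxp-flanked Ctnnb1 with the tamoxifen-inducible Pdgfb-iCreERT, an endothelial driver, and received tamoxifen daily from postnatal day 1. Each genotype was 1 library from pooled retinas of mice of the same litter and genotype, and no WT mouse shared a litter with a knockout mouse, so no value between genotypes has a replicate error. The suspensions were enriched with beads against CD31 and CD11b for endothelial cells and microglia, which the labels call vascular cells, so a neuron here is a cell that came through that enrichment and its share is not its share in the retina.

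Amacrine cells are interneurons of the inner retina that release GABA or glycine onto bipolar cells, ganglion cells and each other. The GABAergic ones make GABA with the glutamate decarboxylases Gad1 and Gad2, load it into vesicles through Slc32a1 and clear it through transporters in the plasma membrane, and they include many types told apart by neuropeptides, acetylcholine and the depth of their processes. They are born from progenitors through Ptf1a and Tfap2 factors, and in the first postnatal week they are still extending processes, forming synapses and losing cells.

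The selected cells of WT held 2377734 UMIs, those of Tspan12 KO 1599862 and those of Ctnnb1 cKO 108262, with medians of 6447, 6032 and 2805.5 UMIs and 2993, 2956 and 1580.5 genes per cell. A single deep cell held between 4.35% and 7.28% of the UMIs of its library's selected cells. No barcode of a selected cell occurred in another library. The median mitochondrial share per cell was 2.62%, 1.88% and 0.401%, and mitochondrial genes had the same order in rods (28168, 24250 and 9629 CPM summed). UMIs were summed over the selected cells of a library, and levels below are those sums as CPM, which sets every library to the same total. Where 3 values follow each other, they are WT, Tspan12 KO and Ctnnb1 cKO. Square brackets hold exact 95% intervals that cover counting error only. Rods (2834, 3206 and 546 cells, median 3483, 2344.5 and 2482.5 UMIs) served as a measure of free RNA, because they should lack GABA genes.

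The label was checked first against Slc32a1, the vesicular GABA transporter, which the rule did not use. Its level in the selected cells was 82.4 [71.3 to 94.8], 83.8 [70.2 to 99.2] and 120.1 [63.9 to 205] CPM, against 2.46, 2.12 and 2.77 CPM in rods. A UMI of Slc32a1 was found in 37.4% [31.8 to 43.3], 38.5% [32 to 45.2] and 26.5% [12.9 to 44.4] of the selected cells (107, 85 and 9 cells) and in 1.02%, 0.717% and 0.733% of rods. With each cell thinned to 2000 UMIs, and the shallower 23, 9 and 8 selected cells and 256, 1271 and 199 rods left out, the shares were 15.2%, 15.1% and 23.1%, against 0.465%, 0.413% and 1.15% of rods. In each library the selected cells were therefore well above the rods on a gene outside the rule, and the 3 libraries' intervals overlapped. Cells of the same gate selected on the glycine transporter Slc6a9 also held it, at 70.8, 50.9 and 14.3 CPM.

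The genes of the rule described the selected cells as follows. Gad1 was at 164, 193 and 92.4 CPM and Gad2 at 449, 357 and 582 CPM. Every library held both enzymes, with more Gad2 than Gad1. Tfap2b was at 905, 858 and 573 CPM, Tfap2a at 176, 156 and 129 CPM and Pax6 at 661, 574 and 785 CPM. A UMI of Tfap2a or Tfap2b was present in 216, 158 and 23 cells (75.5%, 71.5% and 67.6%), and the remaining 70, 63 and 11 cells entered through Pax6 alone. Pax6 is also made by progenitors, Muller glia and other inner retinal neurons, and in rods it was at 32.9, 51.1 and 108 CPM. The Gad threshold rested on a single UMI in 36, 22 and 12 cells. Slc32a1 in cells just inside the Gad threshold (3 to 4 per 10000) was at 55.0, 70.9 and 166 CPM, against 64.7, 39.7 and 0 CPM in cells just outside it (2 to 3 per 10000). In cells with 2 UMIs of the factors it was at 22.7, 51.7 and 99.4 CPM, from 4, 6 and 3 UMIs, against 41.1, 15.3 and 0 CPM in cells with 1. At both thresholds the level was higher outside in WT and higher inside in the knockouts.

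**Figure D1:**
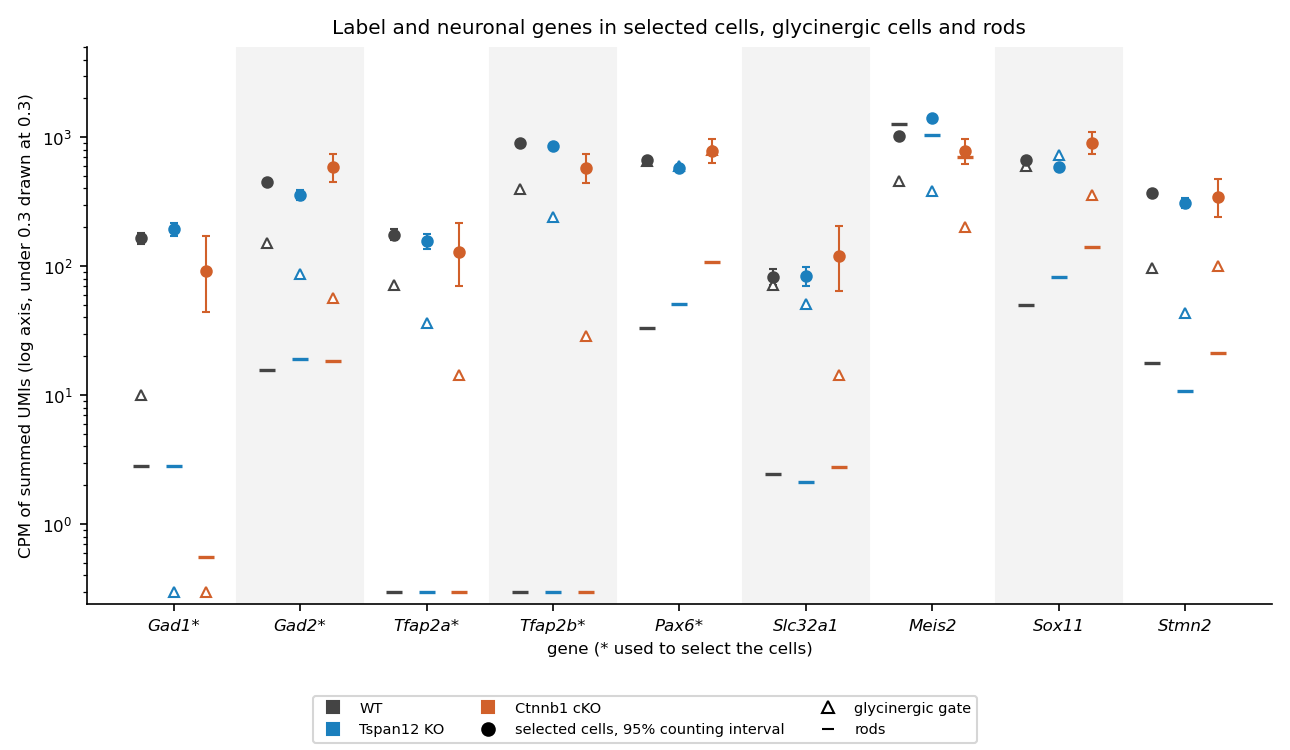
Level of amacrine genes in 3 cell classes of each library, as CPM of summed UMIs on a log axis, with values under 0.3 drawn at 0.3 and bars for the exact 95% counting interval. Slc32a1, outside the rule, stood at 82.4 to 120.1 CPM in the selected cells and at 2.12 to 2.77 CPM in rods.

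Not every selected cell carried an amacrine profile. Clustering of the 541 cells, done on all their genes and given here as a description, gave 13 clusters. One of 72 cells (37, 24 and 11 by library) led with Hes5, Slc1a3 and Ccnd1, genes of glia and progenitors, with 4109 CPM summed over the Muller glia markers, 33.9 CPM of Gad1 and 13.6 CPM of Slc32a1. Another of 44 cells (23, 19 and 2) led with the photoreceptor genes Nr2e3, Rp1 and Rom1 and had 3833 CPM over the rod markers, with a median of 11898 UMIs per cell. These 116 cells went against the label, so the 541 cells are called selected cells throughout. A further cluster of 28 cells (19, 8 and 1) led with Galnt14 and held Kcnip4, Cdh18 and Cpeb2 among its leading genes, 4 genes that were higher in the glycinergic gate below. It had 521 CPM of Gad2, 97.2 CPM of Slc32a1 and 90.3 CPM of Slc6a9. Larger clusters held as much Slc6a9. One of 74 cells, led by Klhl35, had 97.9 CPM of it, with 777 CPM of Gad2 and 0 CPM of Gad1. One of 53 cells, led by Robo3, had 132 CPM of it, with 858 CPM of Gad2 and 11.3 CPM of Gad1. Summed over all selected cells, the rod markers were at 1373, 2094 and 2023 CPM, against 8907, 9693 and 7488 CPM in rods. The Muller glia markers were at 1147, 919 and 1487 CPM, the progenitor and precursor markers at 887, 628 and 1422 CPM and the bipolar markers at 473, 729 and 526 CPM. Ganglion cell markers (18, 14 and 18 CPM), astrocyte markers (22, 33 and 9 CPM) and mural markers (9.67, 12 and 0 CPM) were near 0.

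Many genes followed a split of the selected cells by which of the glutamate decarboxylases they held. Gad1 was detected in 109, 115 and 6 cells and Gad2 in 243, 183 and 29 cells, and both in 66, 77 and 1. The cells with a Gad1 UMI had medians of 6925 and 7264 UMIs in WT and Tspan12 KO, against 6407 and 5215 for those without, so the cells with Gad1 were also the deeper ones in both libraries. The split was made on measured Gad1 and is described with no test. The clusters led by glial and progenitor genes and by photoreceptor genes had 33.9 and 7.66 CPM of Gad1. Their cells therefore lay mostly on the side without it, and their part in the values below was not tested. With only 6 cells with Gad1 in Ctnnb1 cKO, the split is given for the WT and Tspan12 KO libraries. Of the 9542 genes with at least 50 UMIs over all selected cells, 596 (6.25%) were 2-fold or more higher in the cells with Gad1 in both libraries and 385 (4.03%) were 2-fold or more higher in the cells without it.

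Cells with Gad1 held more of the genes that handle GABA and that act at synapses. The GABA transporter Slc6a11 was at 175 and 130.0 CPM in cells with Gad1, against 27.9 and 43.9 CPM in cells without. Slc32a1 was at 129.5 and 96.7 against 51.5 and 64.2 CPM. Both had the higher level with Gad1 in both libraries. The chloride exporter Slc12a5, which lets GABA become inhibitory as neurons mature, was at 124 and 134 against 24.4 and 20.4 CPM. Of 13 tested GABA receptor and chloride genes, 4 were 2-fold or more higher with Gad1 in both libraries (Gabra3, Gabrd, Gabrg3 and Slc12a5) and 0 without.

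Of 15 tested glutamate receptor genes, 6 were 2-fold or more higher with Gad1, Gria1, Gria3 and Grm5 among them, and 0 without. The AMPA receptor subunit Gria2 was at 400.2 and 439 against 154 and 135 CPM and the metabotropic receptor Grm8 at 688 and 723 against 162 and 157 CPM. Among 20 presynaptic genes 7 were higher with Gad1 and 2 without, with the active zone protein Rims1 at 797 and 940.2 against 219 and 166 CPM and the ribbon synapse complexin Cplx3 the other way, at 75.4 and 98.8 against 518 and 519 CPM. Among 26 voltage-gated channel genes 8 were higher with Gad1 and 2 without (Cacna2d3 and Kcnb2).

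Adhesion molecules stood mostly on the side of Gad1, with 16 of 34 genes there against 1 (Cntn2) on the other. The contactin Cntn5 was at 988 and 916 against 27.2 and 89.3 CPM, Cntnap2 at 1567 and 953 against 218 and 251 CPM and the protocadherin Pcdh9 at 1754 and 1978 against 381 and 385 CPM. Of 24 axon guidance genes 7 were higher with Gad1, among them Robo1, the Slit receptor, at 1239.9 and 1276 against 373 and 227 CPM. The 3 higher without Gad1 were Efna5, Nrp1 and Sema5a, with the semaphorin receptor Nrp1 at 134 and 121 CPM without Gad1 and 22.3 and 31.2 CPM with it. Of 20 neurite and cytoskeleton genes 9 were higher with Gad1 and 0 without, and the growth cone protein Stmn2 was at 639 and 433 against 189 and 119 CPM.

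Transcription factors went mostly the other way. Of 43 tested amacrine factors, 19 were 2-fold or more higher in cells without Gad1 in both libraries and 6 in cells with it. Sox11, a factor of young neurons, was at 1034 and 1211 CPM without Gad1 and 109 and 166 CPM with it. Ptf1a, which commits progenitors to the amacrine and horizontal fates and is switched off soon after, was at 104 and 12.5 CPM without Gad1 and 1.06 and 0 CPM with it, and its partner in amacrine development Prdm13 at 391 and 222 against 10.6 and 4.16 CPM. Of 8 tested progenitor and precursor markers, 6 were 2-fold or more higher without Gad1 and 0 with it, and of 7 Muller glia markers 3 and 0.

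Some of the factors on the side without Gad1 were also high in the glycinergic gate. Ebf1 was at 666 and 996 CPM without Gad1 and 44.6 and 32.2 CPM with it, and at 2463 and 1658 CPM in the glycinergic cells. Tcf4 was at 2209 and 2981 CPM without Gad1, 279 and 391 CPM with it and 2958 and 2942 CPM in the glycinergic cells. Of 7 genes of glycinergic and AII amacrine cells, 5 were 2-fold or more higher without Gad1 and 0 with it. On the side of Gad1 stood Isl1, a factor of starburst amacrine cells, at 148 and 189 against 6.96 and 15.7 CPM, Nr4a2 at 145 and 140.4 against 10.4 and 65.8 CPM and Meis2 at 1684 and 1813 against 598 and 801 CPM. Meis2 was at 1262 and 1046 CPM in rods, so its level in the selected cells as a whole was not set apart from that of rods.

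**Figure D2:**
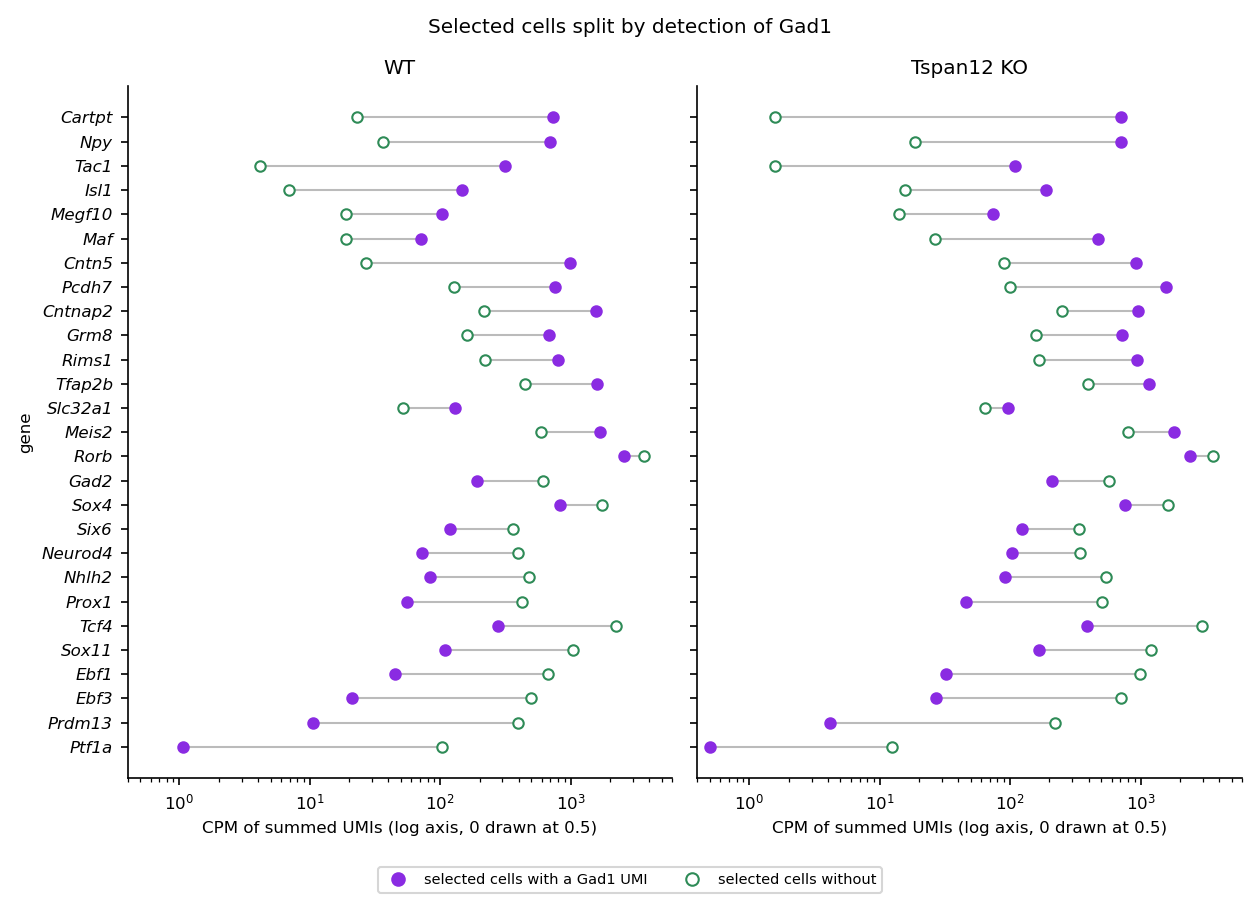
Level of listed genes in the WT (left) and Tspan12 KO (right) selected cells, as CPM on a log axis with 0 drawn at 0.5, with filled points for cells with a Gad1 UMI and open points for cells without, joined by a line. Slc32a1, Isl1 and Cntn5 lie on the side of Gad1, and Sox11, Ptf1a, Prdm13, Ebf1 and Tcf4 on the other side, in both libraries.

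Neuropeptides were carried by few cells at high levels. Cartpt, the precursor of the CART peptide, was at 305 [284 to 328], 429 [397 to 462] and 1459 [1241 to 1706] CPM, from 26, 16 and 2 cells (9.09%, 7.24% and 5.88% of the selected cells), and 1.34%, 1.12% and 0% of rods had a UMI. Its highest cell held 180, 232 and 122 UMIs, and in Ctnnb1 cKO that cell had 77.2% of all Cartpt UMIs. Npy was at 298 [277 to 321], 433 [402 to 467] and 9.24 [0.234 to 51.5] CPM and was found in 34, 29 and 1 cells (11.9%, 13.1% and 2.94%), but 4.02%, 8.76% and 4.40% of rods had a UMI of it too.

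Both peptides were higher in cells with Gad1. Cartpt was at 736 and 712 CPM there, against 23 and 1.57 CPM in cells without, and Npy at 697 and 708 against 36.2 and 18.8 CPM. Tac1, the substance P precursor, was at 126, 65.6 and 64.7 CPM and Pnoc, the nociceptin precursor, at 46.7, 55.6 and 27.7 CPM. Pnoc had 0 UMIs in cells without Gad1 in WT and Tspan12 KO. Only these 4 of 17 neuropeptide genes reached 50 UMIs, and Th, the tyrosine hydroxylase of dopaminergic amacrine cells, was at 1.26, 0.625 and 0 CPM.

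Starburst amacrine cells, which release acetylcholine together with GABA, were few. At least 2 UMIs over Chat, Slc18a3 and Slc5a7 were found in 6, 8 and 1 selected cells (2.10%, 3.62% and 2.94%), against 0.0353%, 0.0312% and 0% of rods, and 0 of 546 rods allows, at 3 counts, a share of up to 0.549%. The median depth of the selected cells was above that of rods in each library. With each cell thinned to 2000 UMIs, 2, 2 and 0 selected cells met this limit (0.760%, 0.943% and 0%), and 0 rods did. These are too few for a test within the selected cells. Chat, the acetylcholine synthase, was at 10.1, 13.8 and 9.24 CPM, and Isl1 at 62.7, 120.0 and 27.7 CPM. The adhesion receptors Megf10 and Megf11, which space starburst cells, were at 52.1, 50 and 0 CPM and 32.8, 51.3 and 18.5 CPM.

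A further view of the spread among the cells came from the variance of each gene over that of Poisson counts at the cells' depths. Of 279 genes with at least 50 UMIs in each library, Cartpt had the highest ratio in all 3, at 97.8, 86.8 and 220. The acid-sensing channel Asic2 (32.1, 27.5 and 8.34), the synaptic adhesion gene Nrxn3 (28.6, 25.9 and 9.82), the amacrine factors Tfap2b (18.04, 16.3 and 6.0) and Ebf1 (15.7, 22.9 and 5.18) and Meis2 (14.2, 12.4 and 6.97) were among the 15 highest by median rank. The others were Malat1, Fabp7, Nlgn1, Dbi, mt-Atp6, Dcc, Dmd, Cadm2 and Magi2. Cartpt led a cluster of 50 cells (25, 20 and 5), 58% of which had a UMI of it, with 5484 CPM of Cartpt and 3057 CPM of Tfap2b. Chat, Isl1, Pnoc and Npy gathered in a cluster of 17 cells (7, 9 and 1), with 1450 CPM of Isl1. Maf, Crybb3 and Adarb2 gathered in a cluster of 32 cells (7, 24 and 1), with 1954 CPM of Maf.

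Selected cells were then compared with glycinergic amacrine cells, the other main class, to find genes that set them apart beyond the genes of the rule. The glycinergic gate held 37, 58 and 20 cells (median 5186, 4336 and 2700 UMIs), of which 45.9%, 41.4% and 10% had a UMI of Tfap2a or Tfap2b. UMIs were summed per class and library, and the classes were tested with edgeR's quasi-likelihood test with the library as a block, so that the 3 libraries were the replicates, although they differ in genotype. At an edgeR adjusted p under 0.05, 46 of 5115 genes outside the rule (0.899%) were higher in the selected cells and 17 (0.332%) were lower, and with the rule genes counted too these were 50 and 18 of 5121, with 484 genes at an unadjusted p under 0.05. Without WT, Tspan12 KO or Ctnnb1 cKO, 105, 13 or 166 genes were higher and 22, 4 or 73 were lower, so each left-out library moved these counts by more than 1.5 times, except for the lower count without WT.

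Genes higher in the selected cells were led by Adarb2, an RNA-binding member of the adenosine deaminase family. It was at 329, 1064 and 92.4 CPM against 0, 3.64 and 0 CPM in the glycinergic cells, from 0, 1 and 0 UMIs there. Its log2 fold change was 8.37 ± 0.49 (SE derived from the test's F statistic, n = 3 libraries) with an edgeR adjusted p of 0.000103. Cartpt was at 305, 429 and 1459 CPM against 0, 3.64 and 14.3 CPM, 7.06 ± 0.42 (SE) on the log2 scale with an edgeR adjusted p of 0.000103. Both were present in part of the selected cells, Adarb2 in 53 WT and 67 Tspan12 KO cells and Cartpt in 26 and 16.

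Several of the rest encode secreted or synaptic proteins, and their log2 fold changes are given ± SE. Scg2, a granin of dense-core vesicles, was at 199, 218 and 111 CPM against 5.06, 14.5 and 0 CPM (4.39 ± 0.43, edgeR adjusted p = 0.00298). The complement-related synaptic protein C1ql2 was at 146, 159 and 73.9 CPM against 10.1, 3.64 and 0 CPM (4.62 ± 0.48, edgeR adjusted p = 0.00364). Kcnip1, a subunit of A-type potassium channels, was at 262, 267 and 259 CPM against 40.5, 7.27 and 14.3 CPM (3.65 ± 0.42, edgeR adjusted p = 0.00542). The remaining genes of the 10 with the largest fold change were Rd3l, Gm2694, Pcp4l1, Syt6 and Plppr5, with log2 fold changes of 3.53 to 5.17 and edgeR adjusted p of 0.00146 to 0.0151. The naming rule took only genes that went the same way in all 3 libraries.

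Lower in the selected cells were the glycosyltransferase Galnt14, at 34.9, 43.1 and 18.5 CPM against 207, 164 and 99.8 CPM (-2.28 ± 0.26, edgeR adjusted p = 0.00542), and Kcnip4, a relative of Kcnip1, at 378, 349 and 64.7 CPM against 1340.1, 1465 and 185 CPM (-1.93 ± 0.20, edgeR adjusted p = 0.00364). The adhesion gene Cdh18 was at 207, 160.0 and 55.4 CPM against 855, 596 and 128 CPM (-1.92 ± 0.23, edgeR adjusted p = 0.00542). With both classes limited to cells with a Tfap2a or Tfap2b UMI, the call of Cdh18 was lost, at a log2 fold change of -0.35 with an edgeR adjusted p of 0.999, while Kcnip4 was at -1.54 with an edgeR adjusted p of 0.00321. Nrp2, a semaphorin receptor, was at 87.9, 78.8 and 36.9 CPM against 389, 199.98 and 128 CPM (-1.797 ± 0.25, edgeR adjusted p = 0.0118). The other 6 of the 10 (Lrfn5, BC034090, Prcd, Cpeb2, 5530401A14Rik and Csmd3) had log2 fold changes of -2.08 to -1.33. Of the 20 named genes, 10 were not tested in that limited set, Galnt14 and Nrp2 among them.

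The listed groups gave few calls between the classes. In the adhesion list 4 of 26 tested genes were higher in the selected cells (Lrrn3, Cntn5, Pcdh9 and Cntn4) and 1 lower (Cdh8), and among 18 guidance genes Robo1 (2.62 ± 0.40, edgeR adjusted p = 0.0143) and Unc5c were higher and Nrp2 was lower. Cdh8, Unc5c and Npy were called without going the same way in Ctnnb1 cKO as in the other libraries, and so was Gabrb2, the only GABA receptor gene of 9 called, which was lower. Meis2 (1.599 on the log2 scale) and Lmo4 (1.63) were the 2 of 32 amacrine factors called higher. Stmn2 and Gap43 were called higher among 16 neurite genes, the calcium channel subunits Cacna2d1 and Cacna2d2 among 18 channels, and Cartpt and Npy among 3 neuropeptides. None of 6 GABA handling genes and none of 16 presynaptic genes was called. Slc32a1 had a log2 fold change of 0.68 with an edgeR adjusted p of 0.654, so it did not pass the test.

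**Figure D3:**
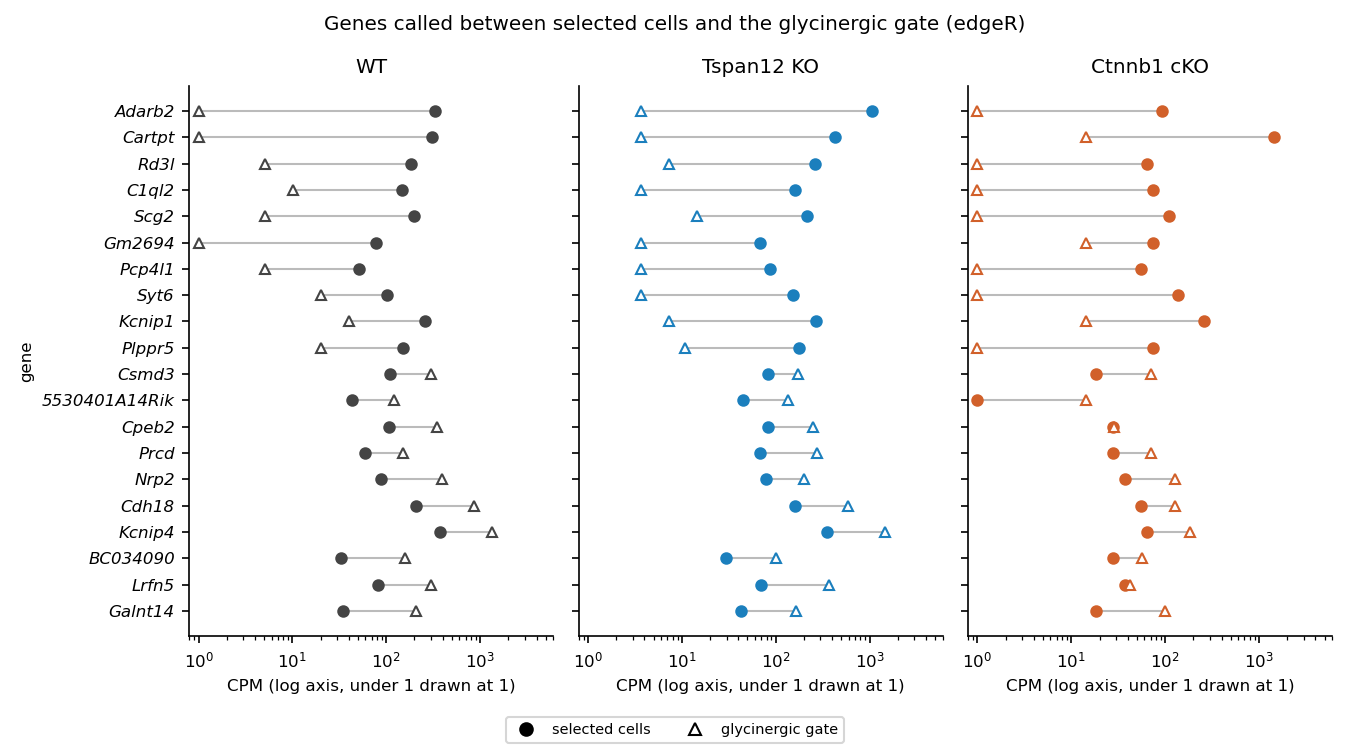
Level of the 20 named genes in the selected cells and the glycinergic gate of the 3 libraries, as CPM on a log axis, with 1 point per class and library. Adarb2 stood at 92.4 to 1064 CPM in the selected cells and at 0 to 3.64 CPM in glycinergic cells, and Galnt14 at 18.5 to 43.1 and 99.8 to 207 CPM.

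Tspan12 KO cells were compared with WT cells over the 9542 genes with at least 50 UMIs. There is 1 library per genotype, so the log2 ratio of CPM is given with its counting interval and no test, and the WT library is shared with the Ctnnb1 cKO comparison below. Tspan12 itself was low, at 18.1, 9.38 and 9.24 CPM, and its 3' reads need not report on the deleted part of the allele. Past 2-fold in Tspan12 KO were 111 genes higher (1.16%) and 162 genes lower (1.7%), and the median log2 ratio over all tested genes was 0.01. All had a counting interval clear of 0, which follows largely from the minimum of 50 UMIs and is no further support. A gene can reach that minimum through 1 library, as Krt73 did with 68 WT UMIs and 1 Tspan12 KO UMI.

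Genes of GABA use had median ratios near 0 between WT and Tspan12 KO. Slc32a1 had a log2 ratio of 0.02 [-0.305 to 0.35]. None of 8 tested GABA handling genes was past 2-fold, with a median ratio of 0.03 against 0.32 in rods. Past 2-fold were also 0 of 13 GABA receptor and chloride genes (median -0.01), 0 of 20 presynaptic genes (median 0.13) and 0 of 7 starburst genes. Over all tested genes 1.16% were past 2-fold higher and 1.7% lower. A count of 0 in lists of this size therefore does not set these genes apart. The interval of Slc32a1 leaves room for differences of up to 0.35 on the log2 scale.

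Among 43 amacrine transcription factors, 3 were past 2-fold higher (Maf, Tfap2d and Zfhx4) and 2 lower (Ptf1a and Prdm13), with a list median of -0.01. Maf was at 39.5 CPM in WT and 295 CPM in Tspan12 KO, a log2 ratio of 2.900 [2.58 to 3.23], from 25 WT and 41 Tspan12 KO cells, and was also higher in rods (1.63). The ratio of Maf was 2.73 in the selected cells with a Gad1 UMI and 0.502 in those without one. Under a stricter rule (at least 3 UMIs of the factors and 6 per 10000 of Gad1 plus Gad2) it was 1.65. Zfhx4 was at 59.7 CPM in WT and 126 CPM in Tspan12 KO (1.07 [0.76 to 1.39], rods 1.01). Tfap2d was at 10.9 CPM in WT and 21.9 CPM in Tspan12 KO, with a lower bound of its log2 ratio of 0.23.

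Ptf1a was at 63.1 CPM in WT and 5 CPM in Tspan12 KO, a log2 ratio of -3.66 [-4.895 to -2.64] from 31 WT and 7 Tspan12 KO cells, with -0.21 in rods. Without the highest cell of each library its ratio was -3.899. Prdm13 was at 241 CPM in WT and 91.3 CPM in Tspan12 KO (-1.398 [-1.67 to -1.13]), with 0.26 in rods. A Gad1 UMI was present in 38.1% of WT and 52.0% of Tspan12 KO cells, and the cells without one held 562 of 572 WT and 142 of 146 Tspan12 KO UMIs of Prdm13. In those cells Prdm13 was at 391 and 222 CPM, a difference of less than 2-fold, and Ptf1a at 104 and 12.5 CPM. Atoh7 and Hes5 were among the progenitor markers past 2-fold lower as well, and the summed progenitor and precursor markers were at 887 CPM in WT and 628 CPM in Tspan12 KO. The part of cells with those markers in the values of Ptf1a and Prdm13 was not tested, and fewer such cells and less RNA per cell cannot be told apart in these sums.

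Several of the genes farthest above WT were leading genes of a single cluster. Adarb2 was at 329 CPM in WT and 1064 CPM in Tspan12 KO (1.69 [1.57 to 1.82]), in 53 WT and 67 Tspan12 KO cells, and 1.27 in rods. The crystallin Crybb3 was at 10.9 CPM in WT and 87.5 CPM in Tspan12 KO (3.001 [2.39 to 3.66], rods 2.38), in 12 and 22 cells. The protocadherin Pcdh7 was at 377 CPM in WT and 979 CPM in Tspan12 KO (1.38 [1.26 to 1.496], rods 1.82), in 84 cells of each library. In rods its levels were 11 CPM in WT and 38.5 CPM in Tspan12 KO. The glycinergic gate went the other way, at 632 CPM in WT and 196 CPM in Tspan12 KO (-1.69 [-2.18 to -1.22]). Maf, Crybb3, Adarb2 and Pcdh7 were leading genes of the cluster of 32 cells named above, 24 of them from Tspan12 KO. That cluster held 2.45% of WT and 10.9% of Tspan12 KO selected cells. Outside it, WT and Tspan12 KO were at 314 and 339 CPM for Pcdh7 and 221 and 273 CPM for Adarb2. Maf was there at 11.2 and 15.8 CPM and Crybb3 at 3.44 and 1.44 CPM. The part of the cluster shares in these ratios was not tested. In the selected cells with a Gad1 UMI, the ratio of Crybb3 was 3.18, that of Pcdh7 1.04 and that of Adarb2 1.27. In those without one, the ratios were -2.29 (11 WT and 1 Tspan12 KO UMIs), -0.34 and 0.56. Under the stricter rule that of Adarb2 was 0.72. Glp2r and A330015K06Rik, with ratios of 1.63 and 1.79, were at 1.18 and 1.59 in cells with a Gad1 UMI. In cells without one, A330015K06Rik was at -0.29 (11 WT and 4 Tspan12 KO UMIs). Glp2r had 8 WT and 0 Tspan12 KO UMIs there, a ratio of at most -0.25 at a floor of 3 counts.

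Other genes at the ends of the ratio are known from other cell types or from the sex chromosomes. Pde6h, a cone phosphodiesterase subunit, was at 5.05 CPM in WT and 73.8 CPM in Tspan12 KO (3.87 [3.01 to 4.86]), and the summed cone markers were at 206 and 450 CPM and the summed rod markers at 1373 and 2094 CPM. Xist, transcribed from the inactive X chromosome of females, was at 445 CPM in WT and 1590.1 CPM in Tspan12 KO (1.84 [1.73 to 1.94], rods 1.83), its antisense Tsix at 26.1 CPM in WT and 101 CPM in Tspan12 KO and the Y-linked Ddx3y at 61 CPM in WT and 11.9 CPM in Tspan12 KO (-2.36 [-3.13 to -1.67], rods -1.64). In Ctnnb1 cKO, Xist was at 1053 CPM (1.24 [0.95 to 1.52], rods 0.28) and Ddx3y had 0 UMIs. The labels give no sex for the pooled mice, and a difference between pools in sex and one in genotype cannot be told apart in any ratio between these libraries. Cldn5, a tight junction protein of endothelial cells, was at 93.8 CPM in WT and 15 CPM in Tspan12 KO (-2.64 [-3.32 to -2.03], rods -1.64), beside summed endothelial markers of 265 and 118 CPM. The part of these cells in any other ratio was not tested.

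Some of the lowest ratios rested on 1 cell. Rhoj was at 120.3 CPM in WT and 13.1 CPM in Tspan12 KO (-3.196 [-3.91 to -2.56]), but 223 of 286 WT UMIs were in 1 cell, and without the highest cells its ratio was -1.499. Atoh7 (57 of 69 WT UMIs in 1 cell), Maff (42 of 67) and Gm29266 (60 of 70) went from -2.95, -2.91 and -2.75 to -1.43, -1.75 and -0.43. Cntnap5a was at 58.5 CPM in WT and 207 CPM in Tspan12 KO, with 126 of 331 Tspan12 KO UMIs in 1 cell and a ratio of 1.54 without the highest cells. Krt73, Atf3 and Dnah11 completed the 10 lowest, at 28.6 CPM in WT and 0.625 CPM in Tspan12 KO, 24.8 CPM in WT and 1.25 CPM in Tspan12 KO and 42.9 CPM in WT and 6.25 CPM in Tspan12 KO.

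**Figure D4:**
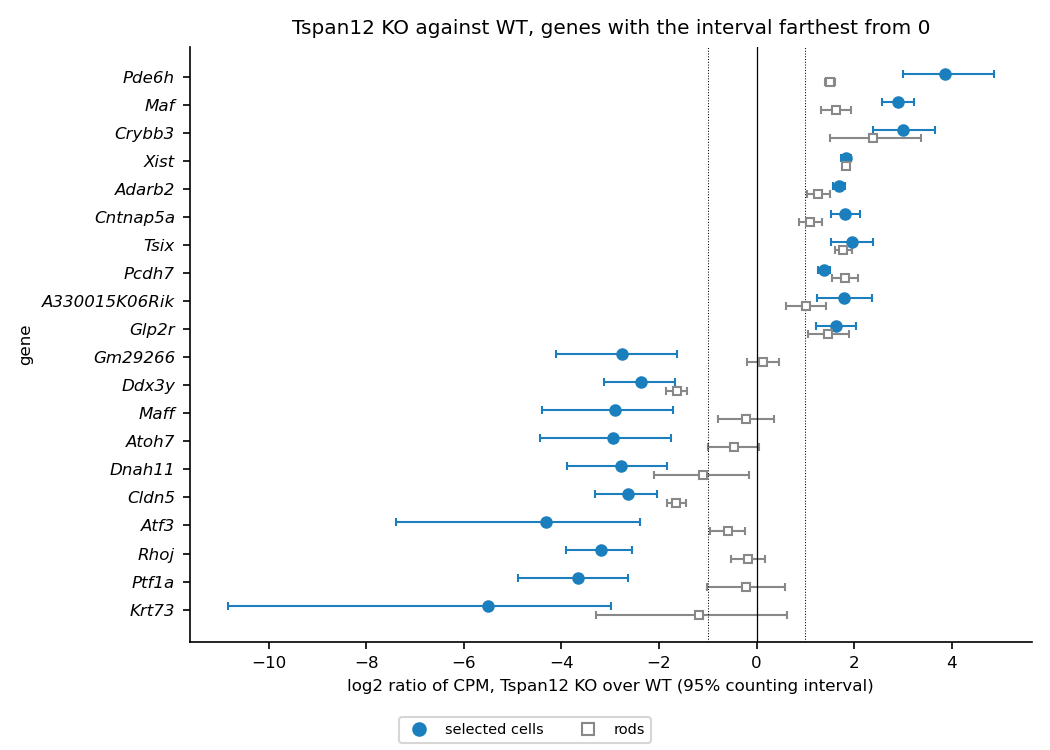
Log2 ratio of Tspan12 KO to WT for the 10 genes in each direction whose counting interval lay farthest from 0, in the selected cells and in rods, with bars for exact 95% counting intervals and dotted lines at 2-fold. Xist was at 1.84 in the selected cells and 1.83 in rods. Pcdh7 was at 1.38 and 1.82, but at -1.69 in the glycinergic gate, which is not drawn. Ptf1a, Rhoj, Atoh7 and Maff were lower in the selected cells, with rods between -0.46 and -0.18 for these 4 genes.

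Receptor and guidance genes gave single members past 2-fold. Of 15 tested glutamate receptor genes 0 were higher and 1 lower, the NMDA receptor subunit Grin2a at 28.6 CPM in WT and 7.5 CPM in Tspan12 KO (-1.93 [-2.95 to -1.03]). The kainate receptor subunit Grik2 was at 1137 CPM in WT and 671 CPM in Tspan12 KO (-0.76 [-0.86 to -0.66]) with 0.26 in rods, which is below 2-fold with an interval clear of 0. Of 24 guidance genes 1 was lower, the repulsive ligand Sema3a at 48.8 CPM in WT and 21.3 CPM in Tspan12 KO (-1.199 [-1.795 to -0.64], rods 0.65). In the adhesion list 2 of 34 were higher (Cntnap5a and Pcdh7) and 0 lower, among 26 channels 2 were higher (Cacna1e and Kcna1) and 0 lower, and among 20 neurite genes 1 was higher, Dcx, a microtubule protein of migrating and young neurons, at 63.1 CPM in WT and 128 CPM in Tspan12 KO (1.02 [0.704 to 1.33], rods 0.87).

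Immediate early genes, which dissociation can also induce, were below WT in 3 of 13 tested (Atf3, Nr4a1 and Zfp36), with a list median of -0.39 against 0.11 in rods. Fos was at 817 CPM in WT and 479 CPM in Tspan12 KO (-0.77 [-0.89 to -0.65]), with 0.06 in rods, and Nr4a1 at 67.7 CPM in WT and 22.5 CPM in Tspan12 KO (-1.59 [-2.15 to -1.06]), with -0.08 in rods. In the glycine receptor list Glra3 was the 1 of 5 past 2-fold, and among 7 genes of glycinergic and AII cells Ppp1r17 was, both lower.

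Ctnnb1 cKO had 34 selected cells with 108262 UMIs, so its ratios are less exact. Ctnnb1 was at 127, 134 and 139 CPM, and the Cre of this mouse is not aimed at amacrine cells. Past 2-fold against WT were 781 genes higher (8.18%) and 1576 lower (16.5%), of which 431 (4.52%) and 525 (5.5%) had a counting interval clear of 0. The median log2 ratio over all tested genes was -0.09 in the selected cells and -0.15 in rods. With TMM scaling, which moved all ratios by -0.11 on the log2 scale, the clear genes were 349 higher and 671 lower.

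The clusters of the selected cells were not equally filled in the Ctnnb1 cKO and WT libraries. The cluster led by glial and progenitor genes held 11 of 34 Ctnnb1 cKO cells (32.4%) and 37 of 286 WT cells (12.9%). A cluster led by Robo3, Nrgn and Nhlh2 held 8 (23.5%) and 26 (9.09%). The 4 clusters led by Il1rapl2, by Cxcl14, by Gm2694 and by Sgcd held 0 Ctnnb1 cKO cells and 24, 12, 21 and 7 WT cells. Which cells were captured and how much of a gene each held cannot be told apart in the summed ratios that follow.

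Many of the largest ratios were shared with rods of the same library. Of 79 ribosomal protein genes 27 were clearly past 2-fold higher, with a median of 0.73 against 0.81 in rods. Rps28 was at 398 CPM in WT and 3907 CPM in Ctnnb1 cKO (3.296 [3.13 to 3.46], rods 3.097), and Rps29, Rpl35, Rps27 and Rpl38 had ratios of 2.77 to 3.19, with 2.78 to 3.32 in rods. Of 13 mitochondrial genes 10 were lower, with a median of -1.702 against -1.96 in rods, and mt-Nd2, mt-Co3, mt-Atp6 and mt-Nd3 were among the 10 lowest genes.

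Genes of other cells were also higher. C1qc, a complement gene of microglia, was at 11.8 CPM in WT and 139 CPM in Ctnnb1 cKO (3.56 [2.55 to 4.51], rods 2.901), and 4 of 5 tested microglial markers were past 2-fold. The microglial markers summed to 109, 74 and 628 CPM in the selected cells and 131, 105 and 698 CPM in rods, and the endothelial markers to 265, 118 and 600.4 CPM and 169, 114 and 404 CPM. Ifitm3, Ctla2a and Ccl4 were higher by 4.22, 4.305 and 3.805 on the log2 scale, with 3.76, 2.65 and 2.56 in rods. The part of this RNA in the other ratios was not tested.

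The median ratio of the axon guidance genes lay below 0 in the selected cells and above 0 in rods. It was -1.19 over 24 genes, against 0.296 in rods, and 9 were clearly past 2-fold lower and 0 higher. Sema6a, a transmembrane semaphorin, was at 319 CPM in WT and 73.9 CPM in Ctnnb1 cKO (-2.11 [-3.33 to -1.12], rods 0.66). Robo1 was at 717 CPM in WT and 259 CPM in Ctnnb1 cKO (-1.47 [-2.06 to -0.93], rods 0.36) and its ligand Slit2 at 358 CPM in WT and 120.1 CPM in Ctnnb1 cKO (-1.58 [-2.49 to -0.79], rods -0.95). In rods Sema6a and Robo1 had ratios above 0. Reln, the secreted lamination factor, was at 207 CPM in WT and 64.7 CPM in Ctnnb1 cKO (-1.68 [-3.003 to -0.63], rods 0.81), and Dcc, the netrin receptor, at 1364 CPM in WT and 582 CPM in Ctnnb1 cKO (-1.23 [-1.61 to -0.87], rods -0.88). Efnb2, Robo2, Unc5c and Unc5d were the other 4.

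In adhesion and receptor genes the same direction was partly seen in rods. Of 34 adhesion genes 13 were clearly lower and 1 higher (Sdk2, 2.09 [0.54 to 3.37]), with a median of -0.98 against -0.49 in rods. Tenm2, a teneurin, was at 994 CPM in WT and 249 CPM in Ctnnb1 cKO (-1.99 [-2.599 to -1.45], rods 0.54), and Cntnap2 at 752 CPM in WT and 139 CPM in Ctnnb1 cKO (-2.44 [-3.28 to -1.72], rods -1.17). Of 15 glutamate receptor genes 8 were clearly lower, with medians of -1.09 and -0.62 in rods. The AMPA receptor subunit Gria4 was at 1447 CPM in WT and 508 CPM in Ctnnb1 cKO (-1.51 [-1.92 to -1.13], rods -0.39).

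Some genes that handle GABA were lower in the Ctnnb1 cKO library. Slc6a11 was at 86.2 CPM in WT and 27.7 CPM in Ctnnb1 cKO (-1.64 [-3.93 to -0.07]), while Slc32a1 was at 82.4 CPM in WT and 120.1 CPM in Ctnnb1 cKO, with a ratio whose interval held 0 (0.54 [-0.39 to 1.35]). Of 8 GABA handling genes 3 were clearly lower, Slc6a11 among them, with a list median of -0.495 against -0.14 in rods. Of 13 GABA receptor and chloride genes 4 were (Gabra2, Gabra3, Gabrb1 and Gabrg3), with a list median of -1.21 against -0.53 in rods. The receptor subunit Gabra2 was at 248 CPM in WT and 36.9 CPM in Ctnnb1 cKO (-2.75 [-4.63 to -1.38], rods 0.34), and Gabrb1 was at 151 CPM in WT and 0 CPM in Ctnnb1 cKO, a log2 ratio of at most -2.45 at a floor of 3 counts. Of 5 glycine receptor genes 2 were clearly lower, Glra2 among them. So were 5 of 20 presynaptic genes (Pclo, Rab3a, Rims1, Sv2b and Syt1), 4 of 26 channels and 3 of 20 neurite genes.

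A Gad1 UMI was present in 17.6% of Ctnnb1 cKO cells and 38.1% of WT cells, and the lists were therefore read in the cells without one as well. In these the guidance median was -0.87 with 6 of 19 genes clearly lower, the adhesion median -0.46 with 5 of 30 lower and 2 higher, and the glutamate receptor median -0.49 with 5 of 13 lower, beside 5.53% of all 7227 genes tested there. The GABA handling median was -0.39 with 1 of 7 clearly lower. The GABA receptor and chloride median was -1.53, farther below 0 than in all selected cells, with 2 of 11 lower. The part of the Gad1 split in the list values was not tested.

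Transcription factors were mixed, with 2 of 43 clearly higher (Neurod1 and Tshz2) and 6 lower, among them Meis1, Nhlh2, Nr4a2 and Zfhx3, and a median of -0.11. Neurod1 was at 271 CPM in WT and 656 CPM in Ctnnb1 cKO (1.27 [0.899 to 1.63], rods 0.39) and Nhlh2 at 322 CPM in WT and 92.4 CPM in Ctnnb1 cKO (-1.800 [-2.87 to -0.91], rods -0.63). Prdm13, which was lower in Tspan12 KO, was at 241 CPM in WT and 240.2 CPM in Ctnnb1 cKO (0.00 [-0.63 to 0.56]). Ptf1a was at 63.1 CPM in WT and 18.5 CPM in Ctnnb1 cKO, from 2 UMIs in Ctnnb1 cKO. No test compared the 2 knockouts with each other.

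Among single genes, the RNA-binding protein Ralyl had the counting interval farthest below 0, at 1044 CPM in WT and 36.9 CPM in Ctnnb1 cKO (-4.82 [-6.698 to -3.46], rods -0.92). Erbb4, a neuregulin receptor, was at 209 CPM in WT and 0 CPM in Ctnnb1 cKO, a log2 ratio of at most -2.92 at the same floor. Lrrc4c, a netrin-G ligand, was at 1516 CPM in WT and 176 CPM in Ctnnb1 cKO (-3.11 [-3.84 to -2.47], rods -0.76), Inpp4b at 376 CPM in WT and 18.5 CPM in Ctnnb1 cKO and Lrrtm4 at 244 CPM in WT and 9.24 CPM in Ctnnb1 cKO. Npy was at 298 CPM in WT and 9.24 CPM in Ctnnb1 cKO (-5.01 [-10.32 to -2.53]), with 1 Ctnnb1 cKO cell holding its only UMI. Each of these was a leading gene of a cluster with 0 (Ralyl, Lrrtm4 and Erbb4), 1 (Inpp4b and Npy) or 3 (Lrrc4c) Ctnnb1 cKO cells. The clusters of Inpp4b and of Npy each held 2.94% of Ctnnb1 cKO and 2.45% of WT cells, and that of Lrrc4c 8.82% and 12.2%. Outside its cluster, Ralyl was at 702 CPM in WT and 36.9 CPM in Ctnnb1 cKO. Inpp4b was there at 328 and 19 CPM, Lrrtm4 at 180 and 9.24 CPM and Lrrc4c at 364 and 112 CPM. The part of the cluster shares in these ratios was not tested.

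**Figure D5:**
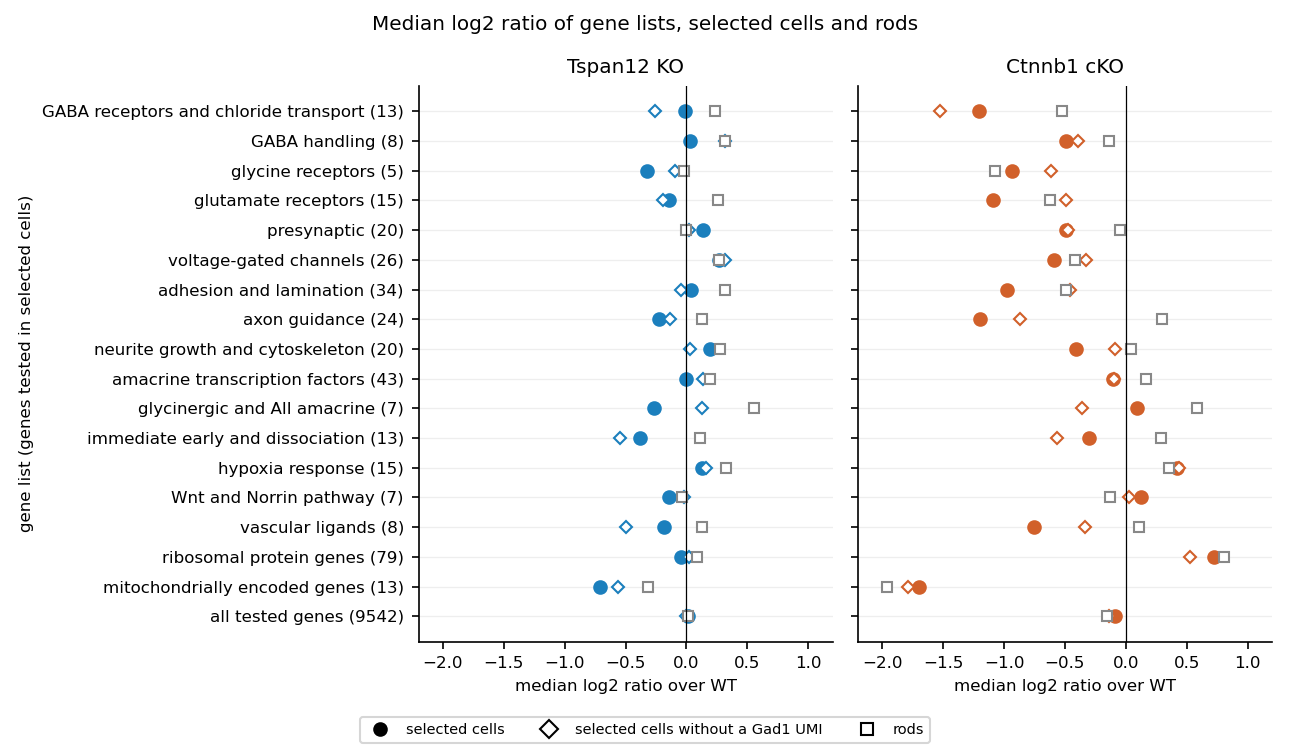
Median log2 ratio of each gene list against WT, for Tspan12 KO and for Ctnnb1 cKO, in all selected cells (filled points), in those without a Gad1 UMI (open diamonds) and in rods (open squares). Most Tspan12 KO medians lie near 0, while in Ctnnb1 cKO the axon guidance median is at -1.19 against 0.296 in rods, and the ribosomal and mitochondrial medians lie close to those of rods.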

How the data were processed

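The deposited matrices hold raw UMI counts for every gene and barcode, produced by the authors in Cell Ranger (version 8.0.1 per the file headers) from libraries of the 10x Genomics 3' kit sequenced on an Illumina NovaSeq. The submitters' processing notes name GRCm39 and the methods name mm10, so no coordinates or sequences are given. The study's own later steps (Seurat, Harmony and integration with public data) were not used here.

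The selected cells and the gene lists were chosen with earlier results of these data known. UMIs were summed per library and cell class and scaled to CPM. Intervals are exact Poisson for CPM, exact Clopper-Pearson for shares and exact conditional binomial for log2 ratios, at 95%. A gene was tested with at least 50 UMIs over the selected cells, and one at 0 in a library entered list medians at a floor of 3 counts. Between genotypes, with 1 library each, no test was made. Sums of the selected cells and of the glycinergic gate were tested with edgeR version 4.0.16 in R version 4.3.3. The settings were filterByExpr, TMM, library as a block and Benjamini-Hochberg adjustment over all genes tested, and DESeq2 version 1.42.0 was the alternative. The 3 libraries differ in genotype and are 1 pool each, so these p-values measure only the spread between them, which may be technical. The SE of a log2 fold change is its absolute value over the square root of the test's F statistic. It rests on a dispersion estimated partly across genes and is not the spread of 3 library values. The ratio script and the edgeR script were tested on simulated counts. Rods had at least 5 UMIs of Nrl, Nr2e3, Gnat1 and Pde6b per 10000 and 0 of Tfap2a and Tfap2b, with a further gene of that rule, like some genes of the lists, not reported here. The glycinergic gate was that of the selected cells with at least 3 UMIs of Slc6a9 per 10000 and no fewer than of Gad1 plus Gad2. Doublets were kept, and removing those with the highest Scrublet scores (0.8% per 1000 cells) was an alternative, since the automatic threshold called 0, 0 and 323 cells. Clusters came from scanpy version 1.11.5 and leidenalg version 0.10.2 (2000 variable genes, 20 components, 15 neighbours, resolution 0.8). Python version 3.11.15 was used with numpy version 2.4.6, pandas version 2.3.3, scipy version 1.17.1 and matplotlib version 3.10.9.

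The genes named are members of the lists, the 10 genes in each direction whose counting interval lay farthest from 0 in each genotype comparison, the 10 in each direction with the largest fold change among those called by edgeR and going the same way in all 3 libraries, and the 15 with the highest median rank of variance over Poisson. Genes of the selection rule were left out of the genotype comparisons and of the edgeR list. Alternatives changed the scaling, the UMI minimum per gene, the depth of the cells, the selection rule, doublets, the Tfap2 and Gad1 subsets, the edgeR filter, block and libraries.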

Additional observations from a re-analysis of the deposited data

How the results depend on the processing

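Between Tspan12 KO and WT, the 111 genes past 2-fold higher became 29 with at least 200 UMIs per gene, 64 with a stricter rule (at least 3 UMIs of the factors and 6 per 10000 of Gad1 plus Gad2), 41 with each cell thinned to 1000 UMIs, 73 in cells with a Tfap2a or Tfap2b UMI, 175 in cells with a Gad1 UMI and 61 in cells without one. The 162 genes lower became 34 with at least 200 UMIs, 41 after thinning and 96 with a Gad1 UMI. Between Ctnnb1 cKO and WT, the 431 clear genes higher became 226 with at least 200 UMIs, 203 with the stricter rule, 162 after thinning and 205 with a Gad1 UMI, and the 525 lower became 138 with the stricter rule, 178 after thinning and 101 with a Gad1 UMI. The subsets hold fewer cells and the higher minimum fewer genes, and otherwise the cause was not tested.

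The edgeR counts of 50 genes higher and 18 lower in the selected cells, genes of the rule included, were 258 and 79 with no low-count filter and 14 and 2 with no replicate block, and DESeq2 gave 39 and 10. Leaving out 1 library at a time gave 13 to 166 higher and 4 to 73 lower. The block is the library, which holds both classes of the same pool. Between genotypes, no paired analysis was possible because each had 1 library. The edgeR test of cholinergic against other selected cells, with its alternatives, was not run, since every library held fewer than 20 such cells.

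Directions reversed in Tspan12 KO cells without a Gad1 UMI for Crybb3 (-2.29), Pcdh7 (-0.34), A330015K06Rik (-0.29) and Glp2r (-0.25). They also reversed for Gm29266 in those with one (1.29), and for Cntnap5a (-0.88) and Rhoj (1.03) under the stricter rule. Several rested on few UMIs in WT and Tspan12 KO, 11 and 1 for Crybb3, 11 and 4 for A330015K06Rik and 2 and 5 for Gm29266. Glp2r had 8 and 0 UMIs, so its value is a bound at the floor of 3 counts. Under the other alternatives of single genes and shares, 454 values stayed the same, 24 kept their direction only and 82 moved by more than their error. For a genotype ratio or a library's share of selected cells, the same means inside the main counting interval. The stricter rule kept 1.205%, 0.604% and 0.160% of cells, and doublet removal took out 11, 19 and 0 selected cells.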

Other observations

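Amacrine cells are known to shape retinal vessels through secreted factors, and a list of 24 vascular ligands was therefore read in the selected cells. Only 8 reached 50 UMIs. Vegfa was at 47.1, 52.5 and 36.9 CPM in the selected cells and 48.4, 49.3 and 40.5 CPM in rods, so its level was not set apart from rods. Slit2 (358, 389 and 120.1 CPM, rods 42.7, 46.7 and 22.2), Tgfb2 (144, 126 and 64.7 CPM, rods 29.9, 56.6 and 66.5) and Sema3a (48.8, 21.3 and 18.5 CPM, rods 0.821, 1.29 and 0.554) had higher levels in the selected cells of WT than in rods. Ndp, which encodes Norrin, was at 4.21, 5 and 9.24 CPM. Against WT, 1 of the 8 was past 2-fold lower in Tspan12 KO (Sema3a) and 2 were clearly lower in Ctnnb1 cKO (Slit2 and Tgfb2), and Tgfb2 had a ratio of 1.15 in rods of that library.

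Genes of the hypoxia response and of the Wnt and Norrin pathway gave few members past 2-fold. Over all tested genes, 1.16% were past 2-fold higher and 1.7% lower in Tspan12 KO. In Ctnnb1 cKO 4.52% were clearly higher and 5.5% clearly lower. Of 15 tested hypoxia genes 0 were past 2-fold in Tspan12 KO and 2 were clearly higher in Ctnnb1 cKO, the glycolytic enzymes Ldha at 509.7 CPM in WT and 1034 CPM in Ctnnb1 cKO (1.02 [0.73 to 1.301], rods 0.32) and Hk2 at 20.6 CPM in WT and 64.7 CPM in Ctnnb1 cKO (1.65 [0.26 to 2.800], rods 2.39), while Egln1 was lower. The hypoxia median in Ctnnb1 cKO was 0.42 in the selected cells and 0.36 in rods. Of 7 tested Wnt and Norrin genes 0 were clearly past 2-fold in either comparison. Bcl2l11, a promoter of apoptosis, was the 1 of 9 developmental cell death genes clearly past 2-fold in Ctnnb1 cKO. It was at 29.9 CPM in WT and 120.1 CPM in Ctnnb1 cKO (2.01 [1.03 to 2.87], rods 0.204). In WT and Tspan12 KO it was also 2-fold or more higher in the cells without Gad1. The list median in Ctnnb1 cKO was 0.01, and 1 call in a list of 9 does not set these genes apart. In Ctnnb1 cKO 1 gene of the list was past 2-fold lower without a clear interval, and 0 of 9 were past 2-fold in Tspan12 KO. Immediate early genes were clearly lower in Ctnnb1 cKO for Fosb, Ier2 and Nr4a1 of 13. Horizontal cell markers summed to 437, 444 and 526 CPM and blood markers to 60.1, 73 and 129 CPM.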
